A study of Mus musculus with 24 samples.

Results

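The 10 genes followed here encode transcription factors of the AP-1, BATF and IRF families. They were Fos, Fosb, Fosl2, Jun, Junb, Jund, Batf, Batf3, Irf4 and Irf8, measured on arrays of mouse CD4 T cells with and without Trim28. They were taken by gene name, as every probe of the array that reads one of them, which gave 13 of 41174 probes. Jund and Batf3 carry older names on the array (Jund1 and 9130211I03Rik) and were found through their RefSeq accessions. Fosl2, Junb and Irf8 have 2 probes each and the others 1, and all 13 probes passed the filter on dim signal. Each gene is given by its brightest probe, as 10 of the 16489 genes tested.

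The 6 groups of 4 arrays were CKO Treg, WT Treg, CKO naive stimulated, WT naive stimulated, CKO naive unstimulated and WT naive unstimulated CD4 T cells from female C57BL/6 mice of 6 or 7 weeks. CKO mice carry a conditional deletion of Trim28 in T cells, and neither the Cre driver nor the flanked part of the gene is named in the sources used here. Trim28 encodes a corepressor that zinc finger proteins bring to chromatin. Naive cells were sorted as CD4+CD62+CD25- and Treg as CD4+CD62+CD25+, and stimulated cells spent 13 h on plates coated with antibodies to CD3 and CD28. Whether the unstimulated cells were also held in culture is not given in the sources used here. The arrays of a group are not tied to separate animals in the labels, so a p-value reflects only how far these samples vary, which may be technical. One label conflicts with the design: the treatment field of the CKO Treg arrays reads TCR-stimulated and that of the WT Treg arrays unstimulated, while the design text has only naive cells stimulated. Il2, the growth factor gene that activated naive cells turn on, was not well above background on any CKO or WT Treg array, against -0.60 to 0.75 in CKO and -0.13 to 0.12 in WT stimulated cells (log2 of the signal over the array's 75th percentile, the scale of every level here). No group here is stimulated Treg without such a conflict, so the Il2 level of stimulated Treg is not known from these arrays. Low Il2 therefore does not decide between the labels. Every comparison that uses the CKO Treg arrays rests on cells whose treatment the labels leave in conflict.

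Trim28 mRNA averaged 0.43 in CKO and 2.00 in WT Treg, 0.97 in CKO and 3.66 in WT stimulated cells, and 0.94 in CKO and 2.45 in WT unstimulated cells, with no overlap in any state. Foxp3, which defines Treg, lay between 3.09 and 3.58 on the 8 Treg arrays and at or below -1.06 on the 16 naive arrays, and Cd3e and Cd4 were well above background throughout. Treg arrays were dimmer, with a 75th percentile of 31.3 to 115.5 in CKO and 53.9 to 200.2 in WT Treg, against 153.9 to 371.8 on naive arrays. Precision is limited by the number of arrays, and fold changes had a median SE of 0.22 on the log2 scale. In RNA from a sorted pool, fewer cells with a transcript and less transcript per cell cannot be told apart.

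AP-1 is a dimer of a FOS protein (FOS, FOSB, FOSL2) with a JUN protein (JUN, JUNB, JUND), or of JUN proteins with each other, joined through a leucine zipper. Fos and Jun are immediate-early genes, transcribed within minutes of a signal and with short-lived mRNA. BATF and BATF3 are zipper proteins that lack a transactivation domain, pair with JUN proteins and, with IRF4 or IRF8, bind composite AP-1 and IRF elements. In T cells that signal through the antigen receptor, NFAT joins AP-1 at Il2, and IRF4 follows the strength of the receptor signal. BATF and IRF4 are known to be required for several helper subsets and for effector Treg.

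The upstream sequences of Jun and Fos, the members that were lower by most after stimulation, and of Irf4 and Irf8, those that were higher, are shown so that the elements these factors are known to bind can be looked for in their own genes. They are the 250 bases before the annotated start in RefSeq (GRCm38.p6), and capitals mark matches to 1 of 5 motifs searched on both strands: TGANTCA (the AP-1 site), TGACNTCA (the wider form that JUN dimers with ATF proteins bind), the CArG box (the serum response factor site), the IRF repeat (GAAA and again GAAA after 2 bases of any kind) and TTCNNNGAA (the STAT site).
Jun, chr4:95052223-95052472, minus strand: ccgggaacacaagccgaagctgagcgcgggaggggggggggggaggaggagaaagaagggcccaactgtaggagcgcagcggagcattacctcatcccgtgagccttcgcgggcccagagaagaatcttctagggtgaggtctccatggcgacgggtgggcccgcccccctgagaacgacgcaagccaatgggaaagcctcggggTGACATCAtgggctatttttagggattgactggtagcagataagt
Fos, chr12:85473640-85473889, plus strand: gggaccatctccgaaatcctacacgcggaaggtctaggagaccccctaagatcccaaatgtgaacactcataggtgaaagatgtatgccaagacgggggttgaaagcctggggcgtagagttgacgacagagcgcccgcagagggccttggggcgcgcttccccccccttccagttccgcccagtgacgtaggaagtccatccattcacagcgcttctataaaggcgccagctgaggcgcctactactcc
Irf8, chr8:120736108-120736357, plus strand: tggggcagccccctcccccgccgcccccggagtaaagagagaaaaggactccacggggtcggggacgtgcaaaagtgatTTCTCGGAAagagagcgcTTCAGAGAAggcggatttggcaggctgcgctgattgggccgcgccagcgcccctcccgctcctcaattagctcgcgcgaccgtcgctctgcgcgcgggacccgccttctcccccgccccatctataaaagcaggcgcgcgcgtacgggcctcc
Irf4, chr13:30748983-30749232, plus strand: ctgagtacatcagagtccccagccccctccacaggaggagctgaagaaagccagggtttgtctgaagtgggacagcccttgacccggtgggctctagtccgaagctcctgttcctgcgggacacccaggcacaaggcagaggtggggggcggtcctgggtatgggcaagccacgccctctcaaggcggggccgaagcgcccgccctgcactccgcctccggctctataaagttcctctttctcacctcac

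The Jun window held TGACATCA from -45 to -38, a motif present in 7.49% of 32851 promoter windows of the same length. Irf8 held 2 STAT-type matches, TTCTCGGAA from -171 to -163 and TTCAGAGAA from -153 to -145, a motif present in 7.02% of windows. Of the members not printed, Fosl2 held the IRF repeat (2.98% of windows) and Batf3 the STAT-type motif. Fos, Fosb, Junb, Jund, Batf and Irf4 held none of the 5 in this window, which says only that these letters are not in these bases. Irf8 has a further start in RefSeq whose window held none.

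The contrast of stimulated with unstimulated cells split the family. Stimulation and 13 h in culture cannot be told apart in it, since culture of the unstimulated cells is not given. In stimulated CKO cells 10 of 10 members differed from unstimulated CKO cells, and in stimulated WT cells 8 of 10 differed from unstimulated WT cells, at an adjusted p under 0.05 by limma over all genes. With so broad a response the counts say little: 60.2% of all genes passed in CKO and 61.9% in WT cells. In CKO cells 2 members were higher and 8 lower, where 29.7% and 30.4% of all genes were, and in WT cells 2 were higher and 6 lower, where 31.7% and 30.2% were. Each FOS and JUN gene that passed was lower after stimulation, while Irf4 and Irf8 were higher in both genotypes. The groups did not overlap for 10 members in CKO cells and for 7 in WT cells, against 56.9% and 55.2% of all genes.

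Among the JUN genes, Jun itself moved furthest. Its level was -1.32, -1.57, -1.37 and -0.996 on the CKO stimulated arrays, against 3.09, 3.26, 3.70 and 3.76 on the CKO unstimulated arrays. In WT cells it was -2.80, -2.30, -3.19 and -2.39 after stimulation, against 3.17, 3.55, 3.44 and 3.97 without. No stimulated array came near an unstimulated one. The log2 fold change was -4.77 ± 0.24 in CKO cells (SE, 27.3-fold lower, adjusted p = 1.01e-12) and -6.20 ± 0.24 in WT cells (73.6-fold lower, adjusted p = 1.50e-14). Junb, whose product often opposes JUN on shared sites, was 11.0-fold lower in stimulated CKO cells (-3.45 ± 0.23, adjusted p = 5.79e-11) and 11.2-fold lower in stimulated WT cells (-3.48 ± 0.23, adjusted p = 2.97e-11). Its second probe gave -3.41 and -3.44. Jund, the JUN gene known for steady expression in resting cells, fell least of the 3, by 1.60 ± 0.23 in CKO cells (adjusted p = 5.23e-06) and by 0.98 ± 0.23 in WT cells (adjusted p = 0.00103).

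The FOS genes ran the same way. Fos was -1.19, -1.41, -1.35 and -1.33 in CKO stimulated cells, against 3.33, 3.77, 3.75 and 4.68 in CKO unstimulated cells. In WT cells it was -2.21, -1.71, -1.91 and -1.86 after stimulation, against 2.98, 4.15, 4.47 and 4.48 without. That is 36.8-fold lower in CKO cells (-5.20 ± 0.30, adjusted p = 1.13e-11) and 61.6-fold lower in WT cells (-5.94 ± 0.30, adjusted p = 8.65e-13). Within the slides that hold both conditions, Fos differed by -4.53 and -5.10 in CKO and by -5.19 and -6.38 in WT cells. The first value of each, from slide 1, sets stimulated cells of 7-week mice against unstimulated cells of 6-week mice. The second, from slide 4, is from mice of 6 weeks throughout. The part of age was not tested. Fosb, a FOS gene that neurons are known to keep switched on as a truncated form, was 22.7-fold lower in stimulated CKO cells (-4.50 ± 0.51, adjusted p = 1.55e-07) and 15.5-fold lower in stimulated WT cells (-3.95 ± 0.51, adjusted p = 7.44e-07). Its unstimulated arrays spread widely, from -0.28 to 1.84 in CKO and from -0.66 to 1.44 in WT cells, and all 8 lay above the stimulated ones. Fosl2 encodes FRA-2, which other immediate-early factors are known to induce late. It fell in CKO cells (-2.08 ± 0.62, adjusted p = 0.00684) and measured -1.29 ± 0.62 in WT cells (adjusted p = 0.0796), but its second probe gave -0.57 (adjusted p = 0.314) in CKO and -1.37 (adjusted p = 0.0172) in WT cells.

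Irf4 rose steeply. It stood at 4.51, 4.38, 4.69 and 4.21 in CKO stimulated cells, against 1.13, 1.45, 1.83 and 1.46 in CKO unstimulated cells, and at 4.29, 4.84, 4.86 and 4.41 in WT stimulated cells, against 1.54, 0.60, 0.85 and 1.09 in WT unstimulated cells. Every stimulated array lay above every unstimulated array of either genotype. The rise was 7.88-fold in CKO cells (2.98 ± 0.21, adjusted p = 2.15e-10) and 11.9-fold in WT cells (3.58 ± 0.21, adjusted p = 8.12e-12). Irf8, the closest relative of IRF4 and best known from dendritic cells and B cells, was 1.87-fold higher in stimulated CKO cells (0.90 ± 0.30, adjusted p = 0.0127). In WT cells the difference was 3.95-fold (1.98 ± 0.30, adjusted p = 6.16e-06). Its levels were 3.25 to 3.93 in CKO stimulated and 1.92 to 3.24 in CKO unstimulated cells, and 3.41 to 4.31 in WT stimulated and 1.35 to 2.61 in WT unstimulated cells. Without CKO unstimulated replicate 4 the CKO difference was 0.64 (adjusted p = 0.0662), and with normexp 0.73 (adjusted p = 0.106), so that call is not firm. The second Irf8 probe rose by 1.55 in CKO (adjusted p = 0.0049) and by 2.12 in WT cells (adjusted p = 2.88e-04).

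Batf and Batf3 did not go with Irf4. Batf levels were 2.96 to 3.72 in CKO stimulated and 4.27 to 4.71 in CKO unstimulated cells, with no overlap, which is 2.01-fold lower (-1.01 ± 0.19, adjusted p = 1.34e-04). In WT cells Batf was 3.26 to 3.68 after stimulation and 3.46 to 4.36 without (-0.46 ± 0.19, adjusted p = 0.0436). That WT call was lost without any of WT unstimulated replicates 2, 3 and 4 or WT stimulated replicates 2, 3 and 4, with differences of -0.50 to -0.33. Batf3 was dim, well above background on 3 of 4 arrays in each stimulated group. It measured -1.94 ± 0.57 in CKO cells (adjusted p = 0.00582) and -1.32 ± 0.57 in WT cells (adjusted p = 0.0507). Without WT unstimulated replicate 4 the WT value was -1.67 (adjusted p = 0.0198), and with normexp the CKO value was -0.36 (adjusted p = 0.491).

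**Figure D1:**
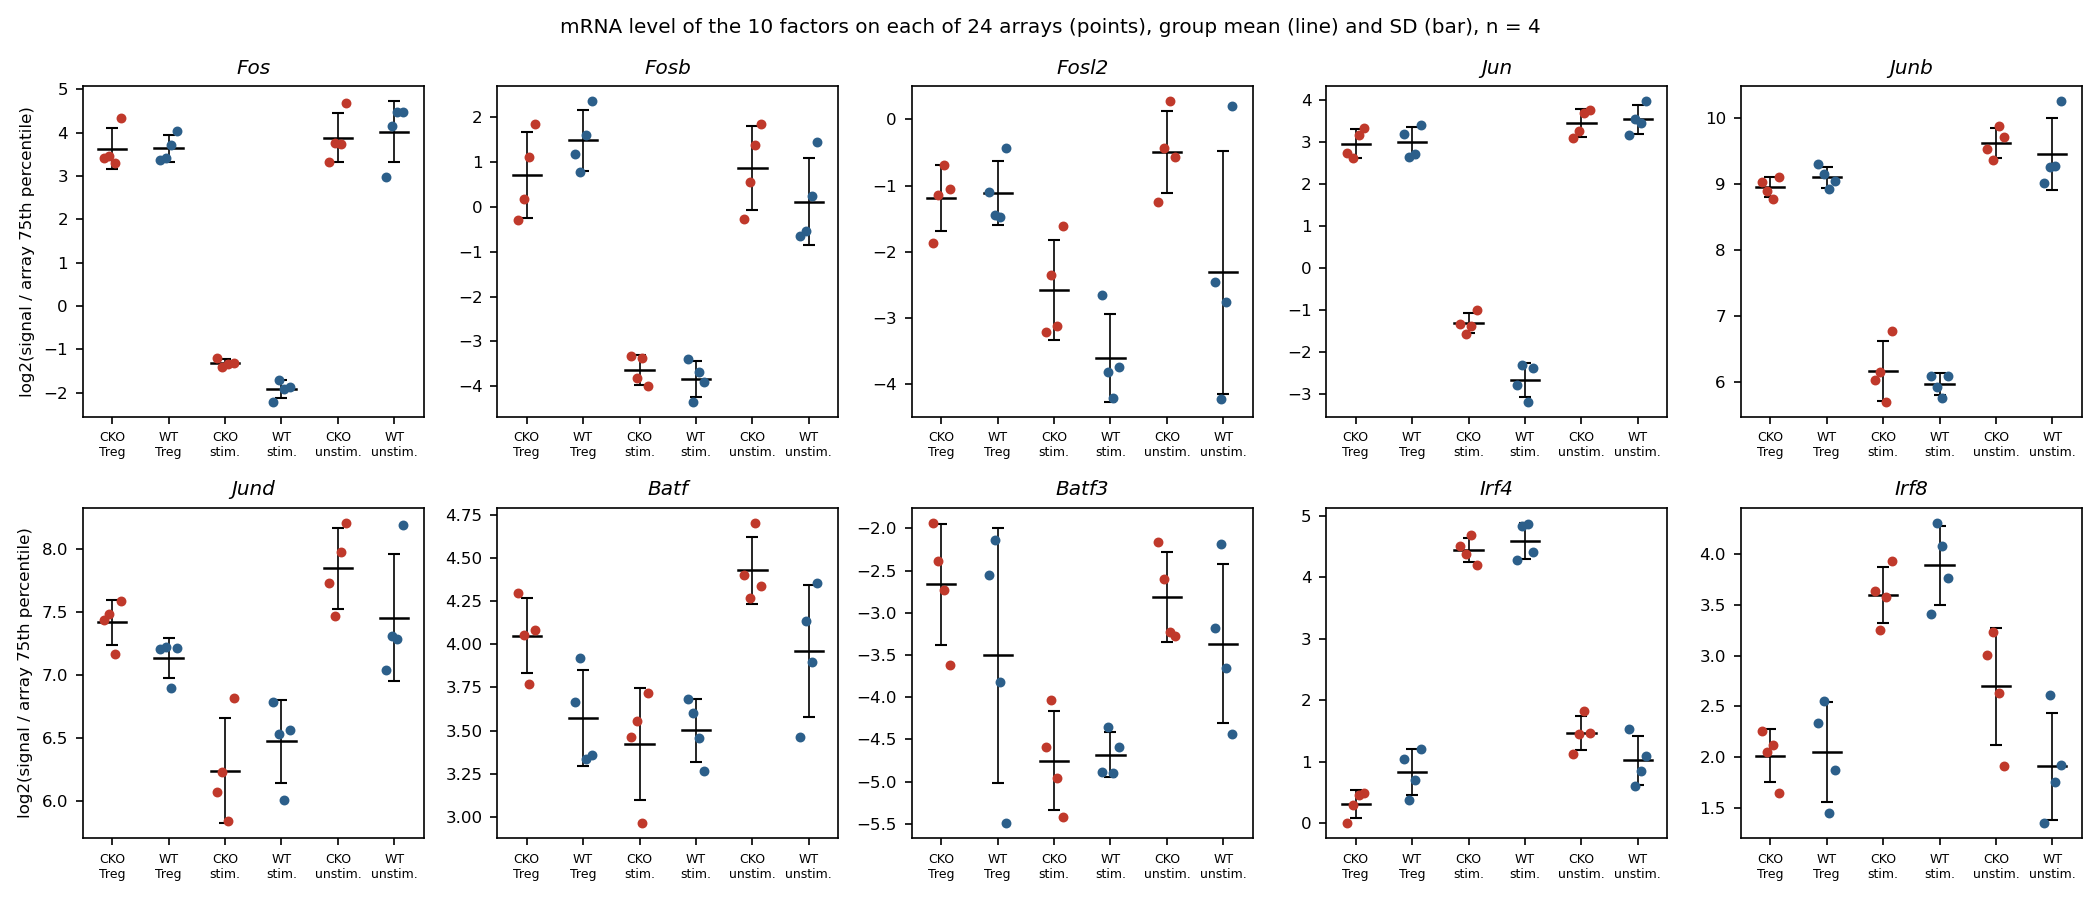
Level of each of the 10 genes (log2 of signal over the array's 75th percentile, vertical axis, own range per panel) on the 24 arrays, with group means as lines and SD as bars (n = 4), CKO in red and WT in blue. Fos, Fosb, Jun and Junb sit far lower in both stimulated groups than in the other 4 groups, Irf4 far higher, and the CKO stimulated Jun points (-1.57 to -0.996) lie above the WT stimulated ones (-3.19 to -2.30).

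**Figure D2:**
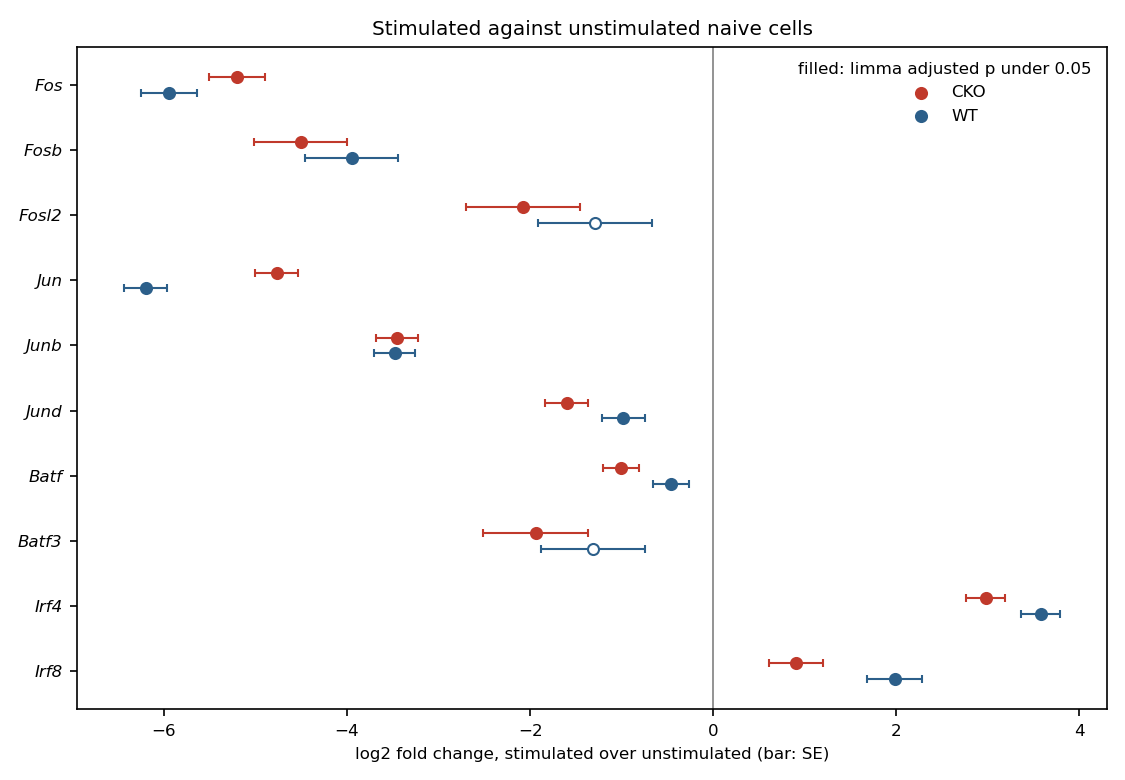
Log2 fold change of stimulated over unstimulated naive cells (horizontal axis, bars SE) for the 10 genes in CKO (red) and WT (blue) cells, filled where the limma adjusted p was under 0.05. The FOS and JUN genes lie left of 0 and Irf4 and Irf8 right of 0, and the widest gap between genotypes is at Jun (-4.77 in CKO and -6.20 in WT).

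Markers of other cells moved with stimulation and are given beside Irf8 and Batf3, which such cells also express. The summed signal of 11 measured B cell markers (in multiples of the array's 75th percentile) was 35.8 to 52.4 in CKO stimulated and 109 to 179 in CKO unstimulated cells, and 17.9 to 30.5 in WT stimulated and 68.2 to 122 in WT unstimulated cells. For 12 myeloid and dendritic markers it was 9.59 to 21.6 in CKO stimulated and 33.7 to 63.1 in CKO unstimulated cells, and 10.4 to 13.98 in WT stimulated and 26.7 to 71.1 in WT unstimulated cells. Of the B cell markers 10 fell in CKO and 11 in WT cells, and 7 of the myeloid markers fell in each. Of 8 markers of CD8, NK and unconventional T cells 8 fell in CKO and 6 in WT cells. Between 6 and 11 B cell markers and between 7 and 11 myeloid markers were well above background on each stimulated array, and Fcgr1 was well above background on none. In the stimulated groups both sums and Batf3 were lower and Irf8 was higher. The part of these cells in the Irf8 and Batf3 values was not tested.

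**Figure D3:**
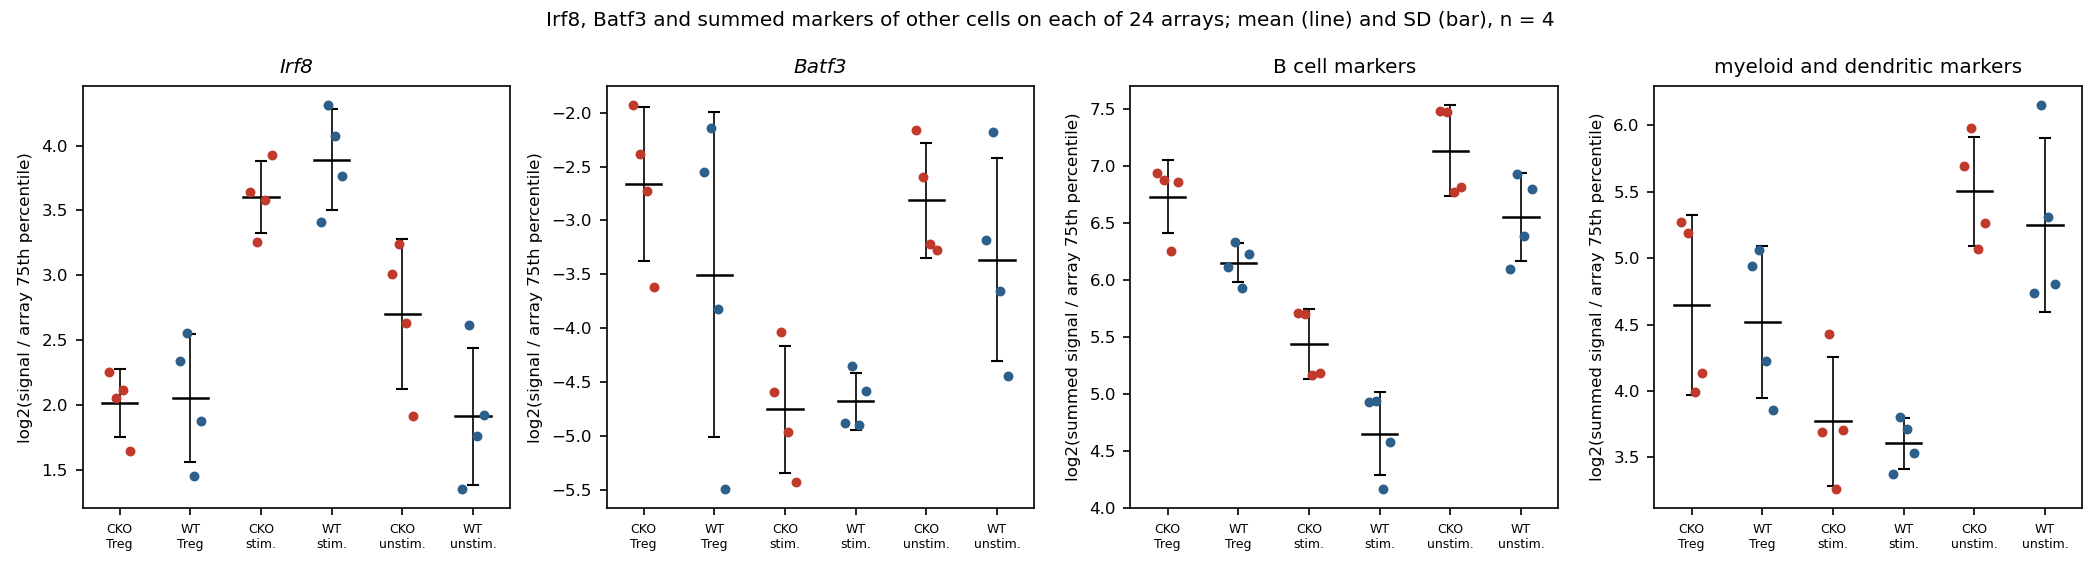
Irf8 and Batf3 levels and the summed markers of B cells and of myeloid and dendritic cells (all log2, relative to the array's 75th percentile) on the 24 arrays, with means as lines and SD as bars (n = 4), CKO in red and WT in blue. In the stimulated groups Irf8 is high while both marker sums and Batf3 are low.

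Other immediate-early genes followed Fos and Jun in part. Of 15 measured, 4 rose and 7 fell in stimulated CKO cells, and 4 rose and 9 fell in stimulated WT cells, with median log2 fold changes of -0.57 and -1.35 against medians over all genes of -0.08 and -0.03. Klf6, a zinc finger factor, fell by 4.21 in CKO and by 4.72 in WT cells, and Dusp1, a phosphatase that inactivates MAP kinases, by 3.58 and 4.31. Egr2, an NFAT-induced zinc finger gene, rose by 2.43 in CKO cells. Of the 7 remaining IRF genes none rose, 4 fell and 3 did not pass in CKO cells, and 6 fell and 1 did not pass in WT cells, where 30.4% and 30.2% of all genes fell. Those that fell in both included Irf7, a driver of interferon genes (-3.20 and -4.64), and Irf9 (-1.21 and -1.89). Of 11 further AP-1 partners, 4 rose and 5 fell in CKO cells and 4 rose and 6 fell in WT cells. Maff, a small zipper protein, fell (-2.95 in CKO and -2.77 in WT) and Bach2, a repressor that competes for AP-1 sites, rose (1.69 and 1.74). Of 16 signalling genes upstream of AP-1 and IRF4, 2 rose and 8 fell in CKO and 4 rose and 6 fell in WT cells. Of 15 measured targets of BATF, IRF4 and AP-1, 8 rose and 4 fell in CKO and 8 rose and 2 fell in WT cells. Among them were the inhibitory receptor genes Pdcd1 (4.60 in CKO and 5.18 in WT) and Lag3 (3.86 and 4.48), and in WT cells Il2 (4.69). In CKO cells Il2 was also higher with stimulation, at -0.60 to 0.75 against -5.96 to -5.20 without. No fold change is given for it there, since it was not well above background on any CKO unstimulated array.

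The question of the study is what Trim28 loss changes. In stimulated cells 1 of 10 members differed between CKO and WT, where 24% of all genes did (11.6% higher and 12.4% lower), and that member was Jun. Its levels of -1.57 to -0.996 on the 4 CKO arrays lay wholly above the -3.19 to -2.30 of the 4 WT arrays, a 2.55-fold difference (1.35 ± 0.24, adjusted p = 4.48e-04). Jun was well above background on each of these arrays, with processed signals of 101 to 149 in CKO and 22.2 to 58.2 in WT cells, each a mean over 10 spots. Each slide that held a CKO and a WT stimulated array showed it, with differences of 1.47, 0.72, 1.81 and 1.40. Under the 12 other settings and with each array left out the difference ran from 0.83 to 1.51, with adjusted p-values from 4.36e-05 to 0.0475. So Jun was lower in stimulated than in unstimulated cells of both genotypes, and higher in stimulated CKO than in stimulated WT cells.

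Fos pointed the same way without passing the test. Its 4 CKO stimulated arrays (-1.41 to -1.19) also lay above its 4 WT arrays (-2.21 to -1.71), which 25.6% of all genes showed in either direction. The difference was 0.60 ± 0.30 (adjusted p = 0.149, 95% interval -0.03 to 1.24). It was called with the slide as a block (adjusted p = 0.0359) and in a fit of these 2 groups alone (0.0233). The other 8 members had intervals that included 0, from -0.48 to 0.33 for Batf and -0.60 to 0.29 for Irf4 up to -0.27 to 2.33 for Fosl2. Junb was called under quantile normalization (0.57, adjusted p = 0.0282), Fosl2 (1.33) and Irf8 (-0.62) with array weights.

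The interaction of genotype with stimulation tests whether the response itself differed. Jun was the 1 of 10 members called, where 3.42% of all genes were, with a stimulated-to-unstimulated log2 change 1.43 ± 0.33 higher in CKO than in WT cells (adjusted p = 0.0179). The call was lost under quantile normalization (1.06, adjusted p = 0.108), on the authors' normalized values (1.05, adjusted p = 0.112) and with normexp background correction (0.95, adjusted p = 0.509). Irf8 measured -1.08 ± 0.42 (adjusted p = 0.197), and its second probe -0.57 ± 0.63. With array weights Irf8 (-1.52) and Irf4 (-0.77) were called as well.

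Other genes of the pathway are read against the 24% of all genes called in the same cells. Of 15 immediate-early genes 5 were higher and 1 lower in CKO than in WT stimulated cells, with a median of 0.45 against -0.05 over all genes. Among the called genes whose groups did not overlap, the 4 with the biggest change were all higher: Nr4a2 (1.14 ± 0.37), an orphan nuclear receptor gene, Dusp1 (0.74 ± 0.18), Nr4a1 (0.72 ± 0.22) and the antiproliferative gene Btg2 (0.72 ± 0.20). Mapk8, for the JNK1 kinase that phosphorylates JUN, was 2.08-fold higher (1.06 ± 0.26, adjusted p = 0.00764), and Nfatc1 was lower (-0.59 ± 0.15, adjusted p = 0.00766), the only 2 called of 16 signalling genes. Irf7 was 3.31-fold higher (1.73 ± 0.25), 1 of 3 IRF genes higher of 7. Bach1, another rival for AP-1-like sites, was 2.15-fold higher (1.10 ± 0.14), with 2 of the 11 partners higher and 1 lower. Of the 15 targets 3 were higher and 2 lower, with the follicular helper genes Cxcr5 (2.67 ± 0.32) and Bcl6 (1.16 ± 0.18) higher and the costimulatory receptor gene Tnfrsf4 lower (-0.97 ± 0.18).

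Markers of the naive state, of B cells and of Treg moved along with Jun in this comparison. Of 5 naive markers 4 were higher in CKO stimulated cells, with a summed signal of 43.2 to 76.2 in CKO and 26.7 to 57.9 in WT cells, and the same count of 4 was called in the interaction with stimulation. All 5 were well above background on each array. Of 11 B cell markers 4 were higher, and their sums are those given above. Of 7 Treg markers 3 were higher, with sums of 69.4 to 111.9 in CKO and 64.4 to 90.3 in WT cells. Foxp3, on that list, was -1.65 to -1.06 on the CKO and -4.14 to -3.41 on the WT stimulated arrays, without overlap. Median log2 differences were 1.27 for the naive, 1.31 for the B cell and 0.42 for the Treg markers, against -0.05 over all genes. The part of any of these in the Jun value was not tested.

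**Figure D4:**
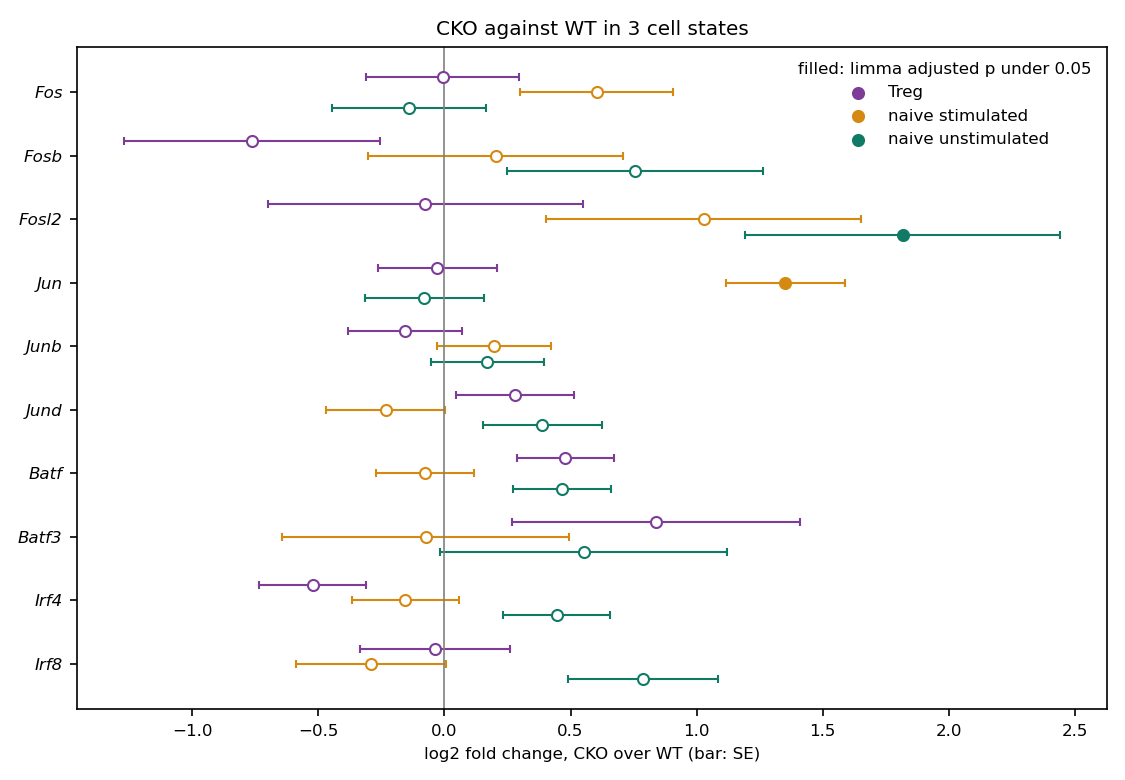
Log2 fold change of CKO over WT (horizontal axis, bars SE) for the 10 genes in Treg, naive stimulated and naive unstimulated cells, filled where the limma adjusted p was under 0.05. Jun in stimulated cells (1.35) and Fosl2 in unstimulated cells (1.82) are the filled points, and most others lie within 0.8 of 0.

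Before stimulation the 2 genotypes had close Jun and Fos levels. The CKO minus WT difference was -0.08 for Jun (95% interval -0.57 to 0.41) and -0.14 for Fos (-0.77 to 0.49). Only Fosl2 was called, 1 of 10 members where 18.7% of all genes were (7.83% higher). No member had groups without overlap, where 20.5% of all genes did. Fosl2 was 3.52-fold higher in CKO cells by its brighter probe (1.82 ± 0.62, adjusted p = 0.0473). That probe read -1.25, -0.44, 0.28 and -0.57 on the CKO arrays, against -2.46, -4.22, -2.76 and 0.19 on the WT arrays, so the groups overlapped through WT replicate 4. The other Fosl2 probe read -2.93, -1.93, -0.84 and -1.48 in CKO cells, against -1.10, -2.77, -1.68 and -1.30 in WT cells, a difference of -0.08 ± 0.48. The probes therefore disagree. The slides gave 1.21, 3.78, 3.04 and -0.77 for the brighter one. The call was lost under 12 of 20 other settings, among them the mean of both probes (0.87) and the omission of WT replicate 1, 2 or 3 or CKO replicate 2, 3 or 4, which gave 1.18 to 1.84. Fosl2 is reported here as uncertain.

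**Figure D5:**
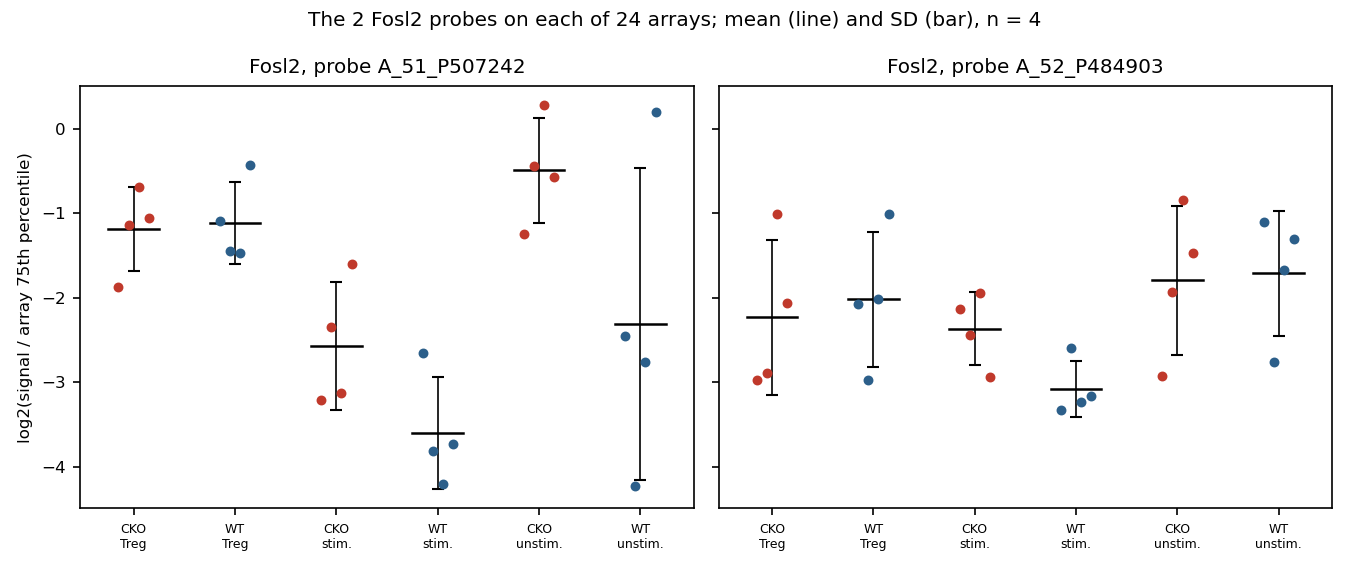
Level of Fosl2 by its 2 probes (log2 of signal over the array's 75th percentile, vertical axis) on the 24 arrays, with means as lines and SD as bars (n = 4), CKO in red and WT in blue. On the left the CKO unstimulated mean (-0.50) lies above the WT unstimulated mean (-2.31), and on the right the 2 means are -1.79 and -1.71.

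Batf, Irf8 and Irf4 were higher in CKO unstimulated cells by amounts that did not pass. Batf was 4.27 to 4.71 in CKO and 3.46 to 4.36 in WT cells (0.47 ± 0.19, adjusted p = 0.0935). Without WT unstimulated replicate 4 Batf (0.60, adjusted p = 0.0305) and Jund (0.63, adjusted p = 0.0342) were called. Irf8 was 3.01, 3.24, 2.63 and 1.92 in CKO cells, against 1.35, 2.61, 1.76 and 1.92 in WT cells (0.79 ± 0.30, adjusted p = 0.0683), and differed by 1.66, 0.63, 0.87 and -0.00 on the 4 slides. It was called without WT replicate 2 (1.02) or CKO replicate 4 (1.05), but its second probe gave -0.10 ± 0.44. B cell marker sums were 109 to 179 in CKO and 68.2 to 122 in WT unstimulated cells, with 2 of 11 markers higher, and myeloid sums were 33.7 to 63.1 and 26.7 to 71.1, with 0 of 12 higher. The median log2 difference was 1.19 for the B cell and 0.17 for the myeloid and dendritic markers, against 0.01 over all genes. All 11 B cell markers were well above background on each of the 8 arrays. Of the 8 markers of CD8, NK and unconventional T cells 2 were higher, with sums of 17.1 to 38.5 in CKO and 13.2 to 22.5 in WT cells. Their median log2 difference was 1.12. The part of these cells in the Irf8 value was not tested. Irf4 measured 0.45 ± 0.21 (adjusted p = 0.145).

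In CKO against WT unstimulated cells 18.7% of all genes were called, and 7.83% of all genes were called higher. Beyond the members, 6 of 15 targets were higher and none lower in CKO unstimulated cells. They included Cxcr5 (1.80 ± 0.32), Bcl6 (0.59 ± 0.18) and Ctla4, an inhibitory receptor gene that Treg express (1.56 ± 0.28). Of 7 Treg markers, Ctla4 among them, 4 were higher in CKO cells, with summed signals of 39.0 to 52.8 in CKO and 34.5 to 52.5 in WT cells, and Foxp3 was -2.34 to -1.39 in CKO and -3.16 to -2.46 in WT cells. Their part in the target counts was not tested. Of the 16 signalling genes 2 were higher and 4 lower, with Mapk3, for the ERK1 kinase, at -0.68 ± 0.15. No further AP-1 partner passed, and of the immediate-early genes only Myc did (-0.55 ± 0.15).

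In Treg none of the 10 members differed between CKO and WT in the limma fit, where 4.31% of all genes did. For none were the groups without overlap, as they were for 8.33% of all genes. Batf and Irf4 had an unadjusted p under 0.05, in opposite directions. Batf was 4.30, 4.05, 3.77 and 4.08 in CKO Treg, against 3.67, 3.92, 3.34 and 3.36 in WT Treg (0.48 ± 0.19, adjusted p = 0.225 by limma). Irf4 was -0.00, 0.29, 0.47 and 0.49 in CKO Treg, against 1.04, 0.38, 0.70 and 1.21 in WT Treg (-0.52 ± 0.21, adjusted p = 0.232 by limma). Both pairs of groups overlapped by single arrays. The intervals for Jun (-0.52 to 0.46), Fos (-0.64 to 0.63) and Junb (-0.63 to 0.31) leave room for differences of up to about that size, and for Fosb, Fosl2 and Batf3 the intervals were wider than 2 log2 units. Elsewhere in the pathway Nfil3, a zipper repressor (-1.0 ± 0.22), Myc (-0.61 ± 0.15) and Il10 (-0.97 ± 0.26) were lower and Cxcr5 higher (2.15 ± 0.32) in CKO Treg. These were 1 lower of 11 partners, 1 lower of 15 immediate-early genes and, of 15 targets, 1 higher and 2 lower.

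Treg were set against unstimulated naive cells next. Of 10 members 2 were called in CKO cells, where 28.3% of all genes were, and 1 in WT cells, where 48.4% were. The 2 in CKO cells were lower (16.7% of all genes) and had no overlap (30.9%), and the 1 in WT cells was higher (18.9%) and overlapped (34.8% did not). Irf4 was lower in CKO Treg (-0.00 to 0.49) than in CKO unstimulated cells (1.13 to 1.83), without overlap and by 2.23-fold (-1.16 ± 0.21, adjusted p = 4.51e-04). In WT cells Irf4 was 0.38 to 1.21 in Treg and 0.60 to 1.54 in unstimulated cells (-0.19 ± 0.21, adjusted p = 0.48). The difference between these 2 contrasts was -0.97 ± 0.30 (limma adjusted p = 0.189), so the CKO and WT contrasts are not shown to differ. None of the members passed that interaction, where 0.394% of all genes did, and at an unadjusted p under 0.05 it held Fosb, Fosl2 and Irf4, all lower. With array weights Irf4 (-0.97, adjusted p = 0.047) and Fosl2 (-2.30, adjusted p = 0.048) were called in it, and Fosl2 also without WT unstimulated replicate 4 (-2.73, adjusted p = 0.0366).

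The other 2 calls were smaller and less steady. Junb was 8.76 to 9.10 in CKO Treg and 9.36 to 9.87 in CKO unstimulated cells (-0.67 ± 0.23, adjusted p = 0.0301), a call lost without CKO unstimulated replicate 3 or 4 or CKO Treg replicate 2 or 3 (-0.65 to -0.59). Fosb was 0.78 to 2.36 in WT Treg and -0.66 to 1.44 in WT unstimulated cells (1.36 ± 0.51, adjusted p = 0.0319), a call lost without WT unstimulated replicate 1 or 2 or WT Treg replicate 3 or 4 (1.07 to 1.33). Jun measured -0.50 ± 0.24 in CKO (adjusted p = 0.121) and -0.55 ± 0.24 in WT cells (adjusted p = 0.0598). It was called in WT cells without WT unstimulated replicate 1 (-0.67) or WT Treg replicate 4 (-0.68) and with the slide as a block (-0.71), which also called it in CKO cells (-0.65). Leaving out single arrays also called Fos (-0.73, without WT unstimulated replicate 1), Batf (-0.56 without that array and -0.51 without WT Treg replicate 2), Fosl2 (2.04, without WT unstimulated replicate 4) and, in CKO cells, Irf8 (-0.94, without CKO unstimulated replicate 4). Treg arrays were dimmer, and the part of that in this contrast was not tested. With normexp background correction 6 members were called in each genotype, with Jun at -0.93 in CKO and -1.13 in WT cells. Of the B cell markers 10 of 11 were lower in CKO Treg and 6 of 11 in WT Treg than in unstimulated cells, with sums of 76.2 to 122.5 in CKO and 61.0 to 80.5 in WT Treg. Among markers for CD8, NK and unconventional T cells, 7 of 8 were lower in CKO and 5 of 8 in WT Treg. Their part in these values was not tested.

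Targets and partners of the factors are given for the same contrasts, where 48.4% of all genes passed in WT and 28.3% in CKO cells. Of 15 targets 10 were higher and 2 lower in WT Treg than in WT unstimulated cells, led by Ctla4 (4.85 ± 0.28), Tnfrsf4 (3.72 ± 0.18) and Lag3 (1.97 ± 0.33), and in CKO Treg Tnfrsf4 (3.63 ± 0.18), Ctla4 (3.49 ± 0.28) and Tnfrsf18 (1.42 ± 0.21) were higher. Ctla4 and Tnfrsf18 are also on the list of Treg markers used to check the labels. Of 11 partners 3 were higher in WT Treg, namely Nfil3 (1.64), Maf (1.07) and Atf3 (1.0), and 3 lower in CKO Treg, namely Maff (-0.94), Bach1 (-0.62) and Mafk (-0.54). Nr4a2 was higher in Treg of both genotypes (1.12 ± 0.37 in CKO and 2.33 ± 0.37 in WT).

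Against stimulated naive cells, Treg showed the stimulation pattern turned round, since these contrasts share the stimulated arrays with those above. Of 10 members 7 were higher and 2 lower in CKO Treg, and 6 higher and 2 lower in WT Treg, where 67.8% and 72.6% of all genes passed. By direction, 34.4% of all genes were higher and 33.3% lower in CKO Treg, and 35.8% higher and 36.8% lower in WT Treg. The groups did not overlap for 9 members in CKO and 8 in WT cells, where 57.4% and 64.8% of all genes did not. Fos was 4.95 ± 0.30 higher in CKO and 5.56 ± 0.30 higher in WT Treg, Jun 4.28 ± 0.24 and 5.65 ± 0.24, and Junb 2.78 ± 0.23 and 3.13 ± 0.23. Irf4 measured -4.13 ± 0.21 in CKO and -3.77 ± 0.21 in WT Treg, and Irf8 measured -1.58 ± 0.30 and -1.84 ± 0.30. Jund in WT cells (0.66 ± 0.23, adjusted p = 0.0157) lost its call without WT stimulated replicate 3 (0.51, adjusted p = 0.0695), with the slide block (0.47) and with normexp (0.02). Batf, at 0.63 ± 0.19 in CKO and 0.07 ± 0.19 in WT cells, measured 0.13 in CKO with normexp and 0.68 in WT cells with quantile normalization. Batf3 measured 2.09 ± 0.57 in CKO (adjusted p = 0.00298) and 1.18 ± 0.57 in WT Treg (adjusted p = 0.0694). Beside it, 7 of 11 B cell markers were higher in Treg of each genotype, and 8 of 12 myeloid and dendritic markers were higher in CKO and 7 of 12 in WT Treg. Their part in the Batf3 values was not tested. Batf3 gained a call in WT cells without WT Treg replicate 4 (1.84), and Fosl2 in CKO cells without CKO stimulated replicate 4 (1.71) or CKO Treg replicate 1 (1.61).

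Ranked by group mean, Fos and Jun ran in the same order, from WT unstimulated through CKO unstimulated, WT Treg and CKO Treg to CKO stimulated and, lowest, WT stimulated cells. The first 4 of these groups overlapped with their neighbours for both genes. For Irf4 the order was WT stimulated, CKO stimulated, CKO unstimulated, WT unstimulated, WT Treg and CKO Treg, with overlap between every pair of neighbours but CKO stimulated and CKO unstimulated cells. Over the 24 arrays, the gene outside the members most correlated with Jun was Tsc22d3 (r = 0.99), with Fos Chd3 (0.99), with Junb Polr3gl (0.99), with Fosb Klf4 (0.98), with Irf4 Ddx51 (0.98), with Jund Kbtbd2 (0.95), with Irf8 Chsy1 (0.94), with Fosl2 Acin1 (0.93), with Batf Plin3 (0.90) and with Batf3 Clec4a3 (0.90). Klf6 was second for both Jun and Fos (0.99). These correlations describe arrays that fall into 6 groups and share slides, so they mainly restate which groups were high. Clec4a3, the closest to Batf3, is known from myeloid cells.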

How the data were processed

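Total RNA of sorted cells was labelled with Cy3 and read on 24 1-colour Agilent arrays, 4 to a slide on 6 slides. The authors' scanner files hold each spot's processed signal, a linear intensity that was background subtracted, detrended and floored with surrogates within each array, per the file headers, and Agilent Feature Extraction 9.5 is named in the submitters' processing notes. The authors also deposited a table of intensity values with the same distribution on every array, used as an alternative.

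Flagged outlier spots were left out, spots of a probe averaged on the log2 scale and each array's 75th percentile subtracted. Probes well above background on at least 3 of 4 arrays of a group were kept (25198), and a gene was its brightest kept probe (16489 genes), with names updated through RefSeq accessions for 22951 probes and unique synonyms for 3109. One limma 3.58.1 model with a mean per group took in all 24 arrays (R 4.3.3, data.table version 1.17.8, jsonlite 2.0.0), 11 contrasts tested 2-sided by eBayes, and p-values adjusted by Benjamini-Hochberg over all genes, called under 0.05. Intervals are 95%. CKO and WT arrays of one state and number share a slide, so differences within slides are given. The numbers were checked for pairing by correlating deviations from group means: every same-numbered pair exceeded 0.1 only for CKO Treg with CKO unstimulated cells (0.37 to 0.49), where the block changed no member's call. All pairs were also positive for CKO with WT Treg (0.08 to 0.46) and CKO stimulated with CKO unstimulated cells (0.09 to 0.38). The same held for WT Treg with WT unstimulated (0.06 to 0.47) and WT stimulated cells (0.08 to 0.30). Arrays of different number were not compared, so pairing is not settled. Ages differ for replicate 1, at 7 weeks in CKO Treg and both stimulated groups and 6 weeks in the other groups. Arrays numbered 1 therefore do not all come from the same mice, and CKO Treg with CKO unstimulated is among the comparisons this touches. Alternatives were quantile normalization, scaling on bright probes, normexp (offset 50), the authors' values, 2 filters, probe rules, fewer groups, replicate and slide blocks, array weights and each array left out. The fit was tested on simulated data. Figures used matplotlib 3.10.9 (Python 3.11.15, pandas 2.3.3).

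The members, lists and comparisons were chosen with earlier results of these data known. Outside the members, up to 4 genes per list and contrast were named, the biggest changes among called genes measured in both groups without overlap. Of the lists, 11 of 11 AP-1 partners, 7 of 7 IRF genes, 16 of 17 signalling genes, 15 of 22 targets and 15 of 16 immediate-early genes were measured, and some of their genes are not reported here.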

Additional observations from a re-analysis of the deposited data

Results flagged for a closer look

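Jund in WT Treg replicate 3 stood apart within its group, at 6.90 against 7.21, 7.23 and 7.21 on the other 3 arrays, a gap of 0.953 of the group's range, past the Dixon critical value for 4 samples. Of 60 member groups checked this was the 1 that passed, and chance gives about 1 in 20. The stimulated-to-unstimulated change of Jun differed between genotypes, by 1.43 ± 0.33 on the log2 scale (limma adjusted p = 0.0179), with a 27.3-fold fall in CKO and a 73.6-fold fall in WT cells. The call was lost under quantile normalization (1.06, adjusted p = 0.108), on the authors' values (1.05, adjusted p = 0.112) and with normexp (0.95, adjusted p = 0.509).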

How the results depend on the processing

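Over all alternatives, 2219 member values kept their side of the threshold, 51 lost a call, 77 gained one and 2 reversed to a call of the other sign. Among the values that stayed uncalled, some near 0 changed sign, such as Fos in CKO against WT unstimulated cells (-0.49 to 0.04). The large falls of Fos, Jun and Junb and the rise of Irf4 with stimulation, and the CKO over WT difference of Jun in stimulated cells, kept their calls under every alternative run. The sizes varied: in WT cells the Fos change ran from -6.29 to -4.99 and the Jun change from -6.45 to -4.88. In CKO cells Fos ran from -5.38 to -4.37 and Jun from -4.98 to -3.93. Both reversals came with normexp background correction: Batf3 in WT Treg against unstimulated cells (0.85, adjusted p = 0.0277) and Batf in WT Treg against stimulated cells (-0.59, adjusted p = 0.0402). The causes were not tested. Members called in CKO against WT unstimulated cells (1) became 3 with quantile normalization, bright-probe scaling or the authors' values, 0 with normexp, no dim filter, the mean of probes or only these groups, 2 with the slide block and 5 with array weights. In stimulated cells 1 became 2 with quantile normalization, the authors' values, only these groups or the slide block, and 3 with array weights. In CKO Treg against unstimulated cells 2 became 1 with quantile normalization, bright-probe scaling or the authors' values, and 6 with normexp. In WT cells 1 became 6 with normexp, 0 with no filter or only these groups, and 2 with a filter on all 24 arrays, the slide block or array weights. The genotype by stimulation count of 1 became 0 with quantile normalization, normexp or the authors' values and 3 with array weights, and the genotype by cell type count of 0 became 2 with array weights. Same-number correlations between genotypes ran from -0.31 to 0.46, and whether the numbers are pairs is not settled. With the replicate number as a block, the count for WT Treg against unstimulated cells was 2, Jun being added (adjusted p = 0.021). Further block gains were Batf3 in WT stimulated against unstimulated cells (-1.32) and in WT Treg against stimulated cells (1.18), and Fosl2 in CKO Treg against stimulated cells (1.38). Leaving out single arrays gave 0 to 3 members for CKO against WT unstimulated, 1 to 1 for stimulated and 0 to 0 for Treg, 9 to 10 in CKO and 7 to 9 in WT for stimulation, 1 to 2 in CKO and 0 to 3 in WT for Treg against unstimulated, 9 to 10 and 7 to 9 for Treg against stimulated, 1 to 1 for genotype by stimulation and 0 to 1 for genotype by cell type. Bright-probe scaling moved the median of all genes in WT Treg against stimulated cells to 0.53, and normexp to 0.38, against 0.05. Counts over all genes ran widely, from 388 to 6621 for CKO against WT unstimulated (3088), 1372 to 8259 for stimulated (3964), 81 to 1027 for Treg (710), 71 to 2758 for genotype by stimulation (564) and 7 to 1027 for genotype by cell type (65). For Batf3 and Fosl2, and for the size of the Fosb fall with stimulation, dim signal over background limits what can be said. The same holds for the size of the Jun differences that use WT stimulated cells, where Jun was low (-3.19 to -2.30). Over the alternatives its CKO over WT difference in stimulated cells ran from 0.83 to 1.51 and its interaction with stimulation from 0.95 to 1.55.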
